A study of Mus musculus with 4 samples.

Results

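Open chromatin was examined at 10 genes of the Notch pathway in mouse hair follicle stem cells with and without the transcription factors NFIB and NFIX. The genes were the receptors Notch1, Notch2 and Notch3, the ligands Jag1, Jag2, Dll1 and Dll4, the target genes Hes1 and Hey1, and Rbpj. An open region belonged to a gene when the highest point of its peak lay closer to that gene than to any other protein-coding gene, at most 100 kb away. This gave 96 of 79122 regions. Placed singly by their own highest point, 82 of 68197 wild-type (WT) and 74 of 63548 knockout (dKO) peaks belonged to these genes. The peak totals include 5 WT and 3 dKO mitochondrial peaks that were left out of the regions. The 10 genes are among 21896 protein-coding genes of the RefSeq table.

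Notch signalling acts between touching cells. A ligand of the Jagged or Delta-like family on one cell binds a Notch receptor on its neighbour, proteases cut the receptor, and its released intracellular part joins the DNA-binding protein RBPJ to switch on genes such as Hes1 and Hey1. In skin the pathway is known for its part in the differentiation of the epidermis and of the hair follicle.

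ATAC-seq, in which a transposase cuts and tags open DNA, was done on stem cells sorted from back skin of male mice aged 70 days, in 2nd telogen, when follicles rest between growth phases. WT mice (numbers 13 and 15) carried NFIBfl/fl, NFIXfl/fl and R26-YFPfl/fl without Cre, and dKO mice (numbers 14 and 16) carried the same alleles plus Sox9-CreER. Cells were DAPI and Sca-1 negative and integrin alpha 6 and CD34 positive, and dKO cells were also sorted for YFP. Cre activity in this model depends on the Sox9 promoter, and how CreER was induced is not stated in the labels used here. The labels name 2 mice per genotype but assign 1 peak list to each genotype, so no value below has a replicate check and no difference between genotypes was tested.

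The lists differed in depth. The median pileup, the number of reads or fragments over a peak's highest point, was 73 for WT and 38 for dKO peaks, and every pileup below is also given divided by its list's median (scaled pileup). The cell type was checked at gene ends. All 10 stem cell and basal keratinocyte markers had a region within 1 kb of a gene end in both lists, with scaled pileups from 2.53 to 5.62 in WT and 2.03 to 5.89 in dKO. None of 5 immune markers had one, and neither did the endothelial markers Pecam1, Cdh5 and Tie1 or the fibroblast markers Lum and Dcn. Tek and Kdr, the other endothelial markers, had 1 each, with scaled pileups of 1.52 and 0.247 in WT and 0.737 and 0.447 in dKO. Tek thus stood above the list median in WT and below it in dKO, and Kdr stood below it in both. Summed over the lists, the endothelial markers reached 1.77 in WT and 1.18 in dKO, the fibroblast markers 4.15 and 2.42, the melanocyte markers 17.8 and 16.7 and the stem cell markers 42.7 and 37.0. The stem cell sum is over 10 genes and each other sum over 5, so these sums are not on a like scale. Of 5 fibroblast markers, 3 had one in WT and 2 in dKO, none above 2.07. Of 5 melanocyte markers, 3 had one in both lists, with the highest scaled pileup of 9.15 in WT and 8.61 in dKO at Pmel, while Tyr and Mlana had none. Mitf had 6.18 in WT and 6.05 in dKO, so Pmel and Mitf each stood above every stem cell marker in both lists. The part of other cells in the results was not tested.

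The promoter DNA of 8 of the 10 genes was in the RefSeq promoter table (GRCm38.p6, the assembly named mm10), as windows of 250 bases before and 50 after a start site. Hes1 and Hey1 were without an entry. Of 10 windows, 9 lay under an open region, and the exception was Notch3. The 4 windows below, 1 each for the DNA-binding partner, 2 receptors and a ligand, are shown among those that hold matches to the 5-base NFI core TTGGC or to the RBPJ core TGGGAA, on either strand. Capitals mark those matches, which read GCCAA or TTCCCA where they lie on the other strand.

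Rbpj, chr5:53590096-53590395, plus strand: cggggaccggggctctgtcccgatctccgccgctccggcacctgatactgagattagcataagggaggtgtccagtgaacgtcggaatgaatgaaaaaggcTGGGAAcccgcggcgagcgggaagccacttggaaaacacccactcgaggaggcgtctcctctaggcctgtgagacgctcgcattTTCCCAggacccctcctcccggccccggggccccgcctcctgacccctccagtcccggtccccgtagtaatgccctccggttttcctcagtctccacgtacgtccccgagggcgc
Notch2, chr3:98013288-98013587, plus strand: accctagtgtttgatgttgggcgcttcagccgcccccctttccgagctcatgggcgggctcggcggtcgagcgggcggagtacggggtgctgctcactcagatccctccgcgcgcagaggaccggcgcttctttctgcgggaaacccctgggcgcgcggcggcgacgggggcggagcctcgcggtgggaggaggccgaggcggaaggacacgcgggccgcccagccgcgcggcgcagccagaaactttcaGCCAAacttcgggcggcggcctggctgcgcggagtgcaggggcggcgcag
Dll4, chr2:119325534-119325833, plus strand: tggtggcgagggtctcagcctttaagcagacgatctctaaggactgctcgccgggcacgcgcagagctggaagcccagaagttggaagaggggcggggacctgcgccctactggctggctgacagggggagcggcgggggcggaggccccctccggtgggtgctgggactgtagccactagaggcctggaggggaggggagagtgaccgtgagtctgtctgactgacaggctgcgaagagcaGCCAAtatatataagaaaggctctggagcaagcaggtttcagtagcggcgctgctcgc
Notch3, chr17:32166841-32167140, minus strand: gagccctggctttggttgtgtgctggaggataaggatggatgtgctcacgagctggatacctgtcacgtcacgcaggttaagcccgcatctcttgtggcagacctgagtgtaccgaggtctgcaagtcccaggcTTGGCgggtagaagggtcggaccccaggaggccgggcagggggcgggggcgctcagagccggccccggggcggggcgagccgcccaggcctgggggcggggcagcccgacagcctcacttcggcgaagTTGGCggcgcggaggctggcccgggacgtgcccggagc

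The Rbpj window held 2 copies of TGGGAA and no TTGGC, Notch2 and Dll4 held 1 TTGGC each, and Notch3 held 2. Among all 10 windows, TTGGC occurred in 4 and TGGGAA in 2, which are the overlapping windows of Rbpj. Of 32817 windows in the table, 46.7% held TTGGC and 25.6% held TGGGAA. The full palindromic NFI site, both NFI cores with a 5-base spacer, and the longer RBPJ motif GTGGGAA occurred in 0 of the 10 windows, against 0.0366% and 6.39% of all windows. The median GC content of the windows was 65.8%, against 52.7% for all windows. A match is a description of letters only.

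The regions over these promoters were present in both genotypes and near each other in height. For 9 genes the region over the promoter window, or over a gene end for Hes1 and Hey1, was called in both lists, and the log2 ratio of scaled pileup, dKO over WT, ran from −0.44 to 0.55. It was lower in dKO for 4 genes and higher for 5, but by fold over local background it was lower for 1 and higher for 8. By pileup 0 of 9 reached a 2-fold difference. Among all 10855 shared regions over a promoter window, 1.79% were at least 2-fold lower and 2.22% at least 2-fold higher in dKO. Of these 10855, 33.7% were higher in dKO by pileup at any size. Their median log2 ratio by fold over local background was 0.10, so all such regions also leaned upward by that measure.

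**Figure D1:**
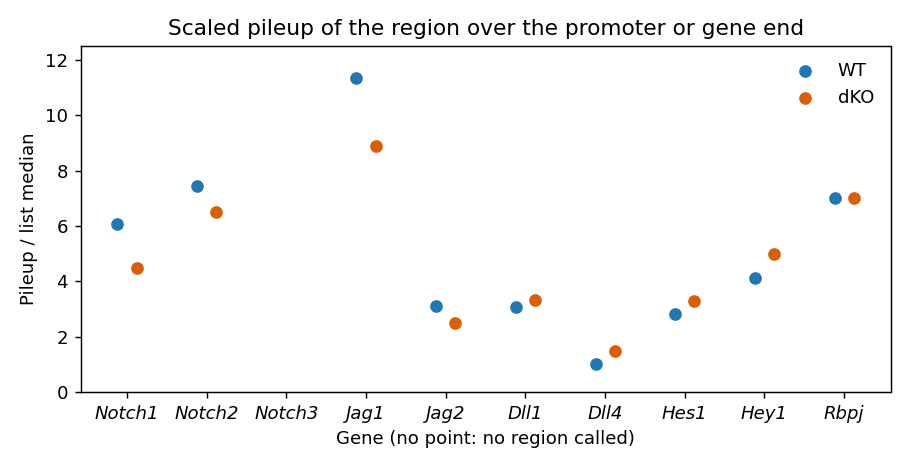
Scaled pileup (pileup over the list median, linear axis) of the region over the promoter window, or over a gene end for Hes1 and Hey1, in the WT and dKO lists, 1 point per list. Jag1 is the highest in both at 11.3 and 8.89, Rbpj is level at 7.01 and 7.03, and Notch3 has no region.

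Jag1, a ligand, had the strongest promoter region of the 10 genes (chr2:137116023-137117770), with a pileup of 828 in WT and 338 in dKO. This region stood above 99.8% of WT peaks and 98.99% of dKO peaks. Its log2 ratio was −0.35, with an exact 95% interval of counting error from −0.54 to −0.17. Rbpj, the DNA-binding partner of all Notch receptors, had pileups of 512 and 267 at its promoter region (chr5:53588687-53591279), a log2 ratio of 0.00 (−0.22 to 0.22). Both lists placed this region at nearly the same scaled height.

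Among receptors, the Notch2 promoter region had pileups of 543 in WT and 247 in dKO (log2 ratio −0.19, −0.42 to 0.03). The region over the Notch1 promoter window was 3513 bp wide, its highest point lay 2.87 kb inside the gene, and its pileups were 442 and 170 (−0.44, −0.70 to −0.18). No region was called over the Notch3 promoter window in either list. The nearest were a shared region 4.22 kb inside the gene, with pileups of 335 in WT and 102 in dKO, and a weak WT-only region 3.15 kb upstream.

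The other ligand promoters were of lower height. Jag2 had pileups of 227 in WT and 95 in dKO (−0.31, −0.68 to 0.04), and Dll1 had 224 and 127 (0.12, −0.20 to 0.44). Dll4, a ligand best known from endothelial cells, was the weakest, with 75 and 57 (0.55, 0.02 to 1.06). Of the 5 endothelial markers, Tek, with a scaled pileup of 1.52 in WT and 0.737 in dKO, and Kdr had a gene-end region, beside 1.03 and 1.5 at Dll4, and Pecam1, Cdh5 and Tie1 had none. The part of endothelial cells in the Dll4 region was not tested. The Dll4 region stood above 51.2% of WT peaks and 64.3% of dKO peaks, so it was near the middle of both lists.

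Hes1 and Hey1 encode repressors that are classic targets of Notch signalling. The Hes1 region at one end of the gene (chr16:30064077-30066186) had pileups of 205 in WT and 125 in dKO (0.23, −0.10 to 0.56). Another region, within 1 kb of the other end (chr16:30066819-30067292), had 238 and 113 (−0.13, −0.47 to 0.20). Only the first was counted for Hes1 among the 9 genes above, so the direction given there for Hes1 rests on that choice. The Hey1 region (chr3:8664580-8668117) covered much of the gene, with pileups of 301 and 189 (0.27, 0.0004 to 0.54). Hey1 had 0 regions by the nearest-gene rule, because the highest point of this region lay in the predicted gene model LOC115489673, which overlaps Hey1 by 115 bp. With such models left out of the gene table, which was tried once the data had been seen, Hey1 had 2 shared regions and 1 dKO-only region.

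Around the 10 genes as a whole, regions of both genotypes and of 1 genotype occurred in shares near those of the genome. Of 96 regions, 58 were shared (60.4%, Wilson 95% interval 50.4 to 69.6). The WT list alone held 22 (22.9%, 15.6 to 32.3), and the dKO list alone held 16 (16.7%, 10.5 to 25.4). Over all regions 64.6% were shared, 21.2% WT-only and 14.2% dKO-only, each inside the interval of the 10 genes. Of the 9 genes with regions, 6 had more WT-only than dKO-only regions and 1 had more dKO-only ones, against 34.3% and 16.5% of the 15611 genes with regions. These shares of genes are not scaled for the number of regions, and the members had a median of 11 regions against 2 over all genes.

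**Figure D2:**
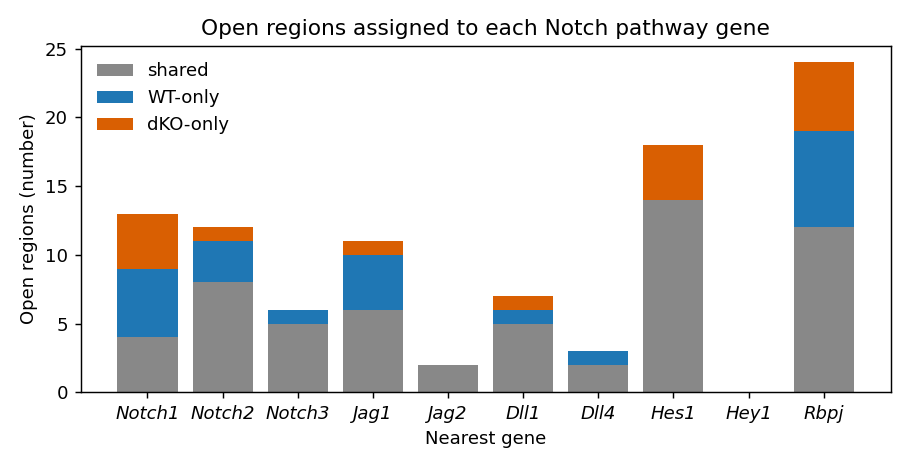
Number of open regions assigned to each gene, stacked by class (shared, WT-only, dKO-only). Rbpj has the most with 24, followed by Hes1 with 18, whose bar holds no WT-only region, and Hey1 has 0.

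Regions found in 1 list were mostly weak. By pileup, the 22 WT-only regions stood at a median percentile of 24.8 among WT peaks and the 16 dKO-only regions at 34.1 among dKO peaks, where all single-list regions stood at 23.3 and 20.2. Only 4 of the 22 and 4 of the 16 were above the 50th percentile of their list. Shared regions stood at a median percentile of 71.6 in WT and 71.2 in dKO, where all shared regions stood at 60.9 and 58.7. Of 30 regions inside gene bodies, 9 came from WT alone and 5 from dKO alone, where all regions of that place were 25.8% WT-only and 14.4% dKO-only. Between genes they had 13 and 9 of 55, where all such regions were 22.6% and 18.2%. Over promoter windows of any RefSeq gene 9 were shared, 2 came from dKO alone and 0 from WT alone, where 2.83% and 2.49% of all such regions were found in 1 list. Both dKO-only ones lay away from the members' own promoters, 90.2 kb from the Dll1 start and 91.9 kb from the Hes1 body. So did 2 of the 9 shared ones, 87.4 and 56.3 kb from the Hes1 body. These 9 regions are therefore not the same set as the promoter and gene-end regions described earlier.

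**Figure D3:**
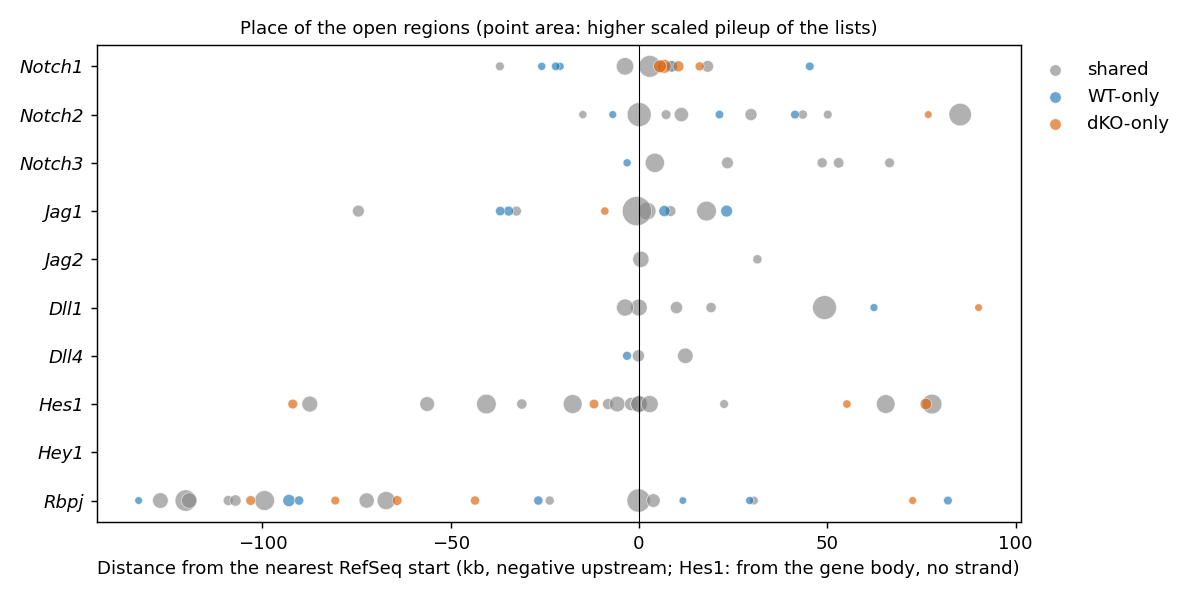
Distance of each region's highest point from the nearest RefSeq start of its gene (kb, negative upstream, and for Hes1 from the gene body without strand), coloured by class. Point area grows with the higher scaled pileup of the lists. Large points lie at several starts and at distant regions of Notch2, Jag1, Dll1, Hes1 and Rbpj. At Hes1 the largest lies 77.8 kb from the gene.

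At the receptor genes, Notch1 was the one with the most regions of a single genotype. Its 13 regions were 5 from WT alone, 4 from dKO alone and 4 from both. All 4 dKO-only regions lay inside the gene, 5.59 to 16.1 kb from its start. The strongest of them by significance (chr2:26496889-26497489) had a pileup of 80, above 74.1% of dKO peaks, but only 2.96 times its local background. The strongest WT-only region (chr2:26494927-26495345) lay among them, with a pileup of 92 and a fold of 2.97. Both stood on a raised local background, 30.3 at the WT-only and 26.4 at the dKO-only region, where the lowest background of the lists was 5.29 in WT and 2.73 in dKO.

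Notch2 had 8 shared regions, 3 from WT alone and 1 from dKO alone. A distant shared region 85.3 kb inside the gene (chr3:98098453-98099800) reached pileups of 473 in WT and 188 in dKO, close to those of its promoter. Its log2 ratio was −0.39 (−0.64 to −0.14). All 4 single-genotype regions of Notch2 had a scaled pileup under 0.5, the most significant being WT-only with a pileup of 33 (chr3:98034675-98035015). The region 29.8 kb inside the gene was higher in dKO, with 65 in WT and 56 in dKO (0.73, 0.18 to 1.26).

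Notch3 had 5 shared regions, 1 WT-only and 0 dKO-only. Its 2 regions inside the gene were lower in dKO, at −0.77 (−1.11 to −0.45) and −0.63 (−1.23 to −0.06). The 3 shared regions beyond the gene's end were higher in dKO, from 0.22 to 0.85, and the interval of 2 of them held 0. By fold enrichment 1 of the 2 regions inside the gene was lower and 1 higher, at 0.015, and 1 of the 3 beyond it was lower, at −0.40.

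Shared regions at the 10 genes had a median log2 ratio of −0.09, with a middle range from −0.49 to 0.23, and those of all genes −0.15 (−0.52 to 0.28). Of 58 regions, 26 were higher and 32 lower in dKO (44.8% higher), against 39.9% of all 51129 shared regions, and this split turned with the scaling, to 32 higher and 26 lower over the median of shared regions and 31 and 27 by fold enrichment. A scaled pileup at least 2-fold lower in dKO was found at 5 of 58, where all shared regions had 9.31%, and a 2-fold higher one at 1, where they had 7.2%. The counting interval of the ratio held 0 at 33 of the 58, lay below 0 at 15 and above 0 at 10. When pileups were divided by the median over shared regions in place of the whole list, 4 were lower and 3 higher, and the median of all shared regions moved from −0.15 to 0.01. By deposited fold enrichment over its list's median, which sets each peak against its local background, 0 were lower and 1 higher, against 3.14% and 2.38% of all.

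**Figure D4:**
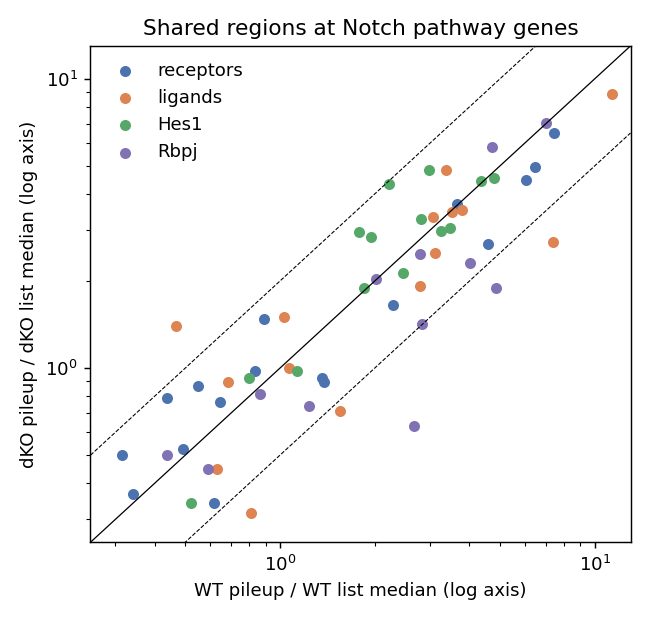
Scaled pileup in dKO against WT for the 58 shared regions (log axes), coloured by role, with a solid line of equality and dashed lines at a 2-fold difference. Of the regions, 5 lie below the lower dashed line and 1 above the upper one.

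All 6 regions past 2-fold lay between genes, 9.96 to 99.4 kb from a start of Jag1, Dll1 or Rbpj, and none was at a receptor or target gene. Between genes, 5 of 33 shared regions of the 10 genes were at least 2-fold lower (15.2%) and 1 higher (3.03%), where all such regions had 12.3% and 9.78%, so the share of lower ones was near the background. The region nearest to the limit without passing it was at Rbpj with −0.997 (chr5:53462957-53463755, pileups of 207 and 54).

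Rbpj had 24 regions, more than 97.8% of the genes with regions. Of the 24, 12 were shared, 7 came from WT alone and 5 from dKO alone. Upstream of the gene body, 7 of 8 shared regions were lower in dKO and 1 was higher, from −2.08 to 0.30. Over the median of shared regions or by fold enrichment, 6 of these were lower and 2 higher. Of all 18916 shared regions between genes, 10963 were lower and 7950 higher in dKO by pileup. Inside the Rbpj body, 1 of 4 was lower and 3 were higher, from −0.40 to 0.19. The 3 higher ones were at 0.003, 0.009 and 0.19, and the counting interval of each of the 4 held 0. The lowest ratio of the 58 regions was 37.7 kb upstream of the gene body (chr5:53517294-53518355), with a pileup of 195 in WT and 24 in dKO. Its scaled pileup was 4.23-fold lower in dKO, a log2 ratio of −2.08 (−2.76 to −1.46). A second region, 64.9 kb upstream (chr5:53489915-53491229), had 356 and 72 (−1.36, −1.75 to −0.99). A WT-only region lay between them (chr5:53496969-53497823) with a pileup of 111, above 63.1% of WT peaks, the strongest WT-only region of the 10 genes by significance. The strongest dKO-only region of Rbpj lay 8.98 kb upstream of the gene body (chr5:53546629-53547095) with a pileup of 23. The fold enrichment of the first region was 9.13 in WT and 4.99 in dKO, a log2 ratio over the list medians of −0.90, and that of the second was 10.3 and 8.72, a ratio of −0.28.

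Dll1 had 5 shared, 1 WT-only and 1 dKO-only region. The region 9.96 kb past its start (chr17:15365380-15366393), beyond the far end of the gene, had a pileup of 113 in WT and 27 in dKO. Its log2 ratio was −1.12 (−1.79 to −0.51) by pileup and −0.94 by fold enrichment. The region 49.3 kb past the start (chr17:15325783-15327530) was among the tallest of the 10 genes, with 538 in WT and 104 in dKO (−1.43, −1.75 to −1.12). Its local background was 62.5 in WT and 10.8 in dKO, and its fold enrichment of 8.49 and 8.91 gave a log2 ratio of 0.03. So this region was lower in dKO by pileup and level by fold enrichment. The background was worked out from the same pileup and fold, so it is no separate measure of the surroundings. The single-genotype regions of Dll1 were weak, with a pileup of 23 in WT (chr17:15313340-15313666) and 10 in dKO (chr17:15285527-15285792).

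Jag1 held the region with the highest ratio. It lay 74.5 kb upstream (chr2:137190657-137191395) with a pileup of 34 in WT and 53 in dKO, so the raw value was higher in the shallower list. Its scaled pileup was 2.99-fold higher in dKO, a log2 ratio of 1.58 (0.93 to 2.25), and its fold enrichment was 5.57 in WT and 12.3 in dKO (1.11). A shared region 32.5 kb upstream (chr2:137148870-137149274) had 59 in WT and 12 in dKO (−1.36, −2.39 to −0.44). By fold enrichment its ratio was −0.74, short of 2-fold, and with peaks of q 1e-05 or less in both lists it was no longer shared. WT-only regions lay 34.6 and 36.9 kb upstream with 59 and 50. The strongest WT-only region of Jag1 lay inside the gene (chr2:137092783-137093450) with a pileup of 101. A shared region 17.9 kb inside the gene (chr2:137097712-137098927) was higher in dKO, with 246 in WT and 184 in dKO (0.52, 0.24 to 0.80). The 1 dKO-only region, 9.06 kb upstream (chr2:137124967-137125674), had a pileup of 15.

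Jag2 and Dll4 had few regions, 2 and 3. Jag2 had 2 shared regions and no other. Dll4 had a shared region beyond its far end (chr2:119337541-119338513) that was taller than its promoter region, with 203 in WT and 73 in dKO (−0.53, −0.94 to −0.14). Its 1 WT-only region (chr2:119322339-119322759) had a pileup of 40.

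**Figure D5:**
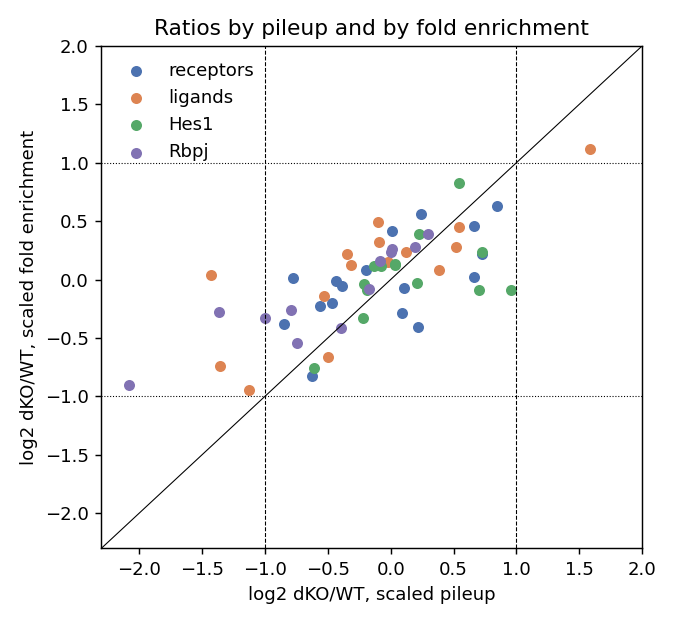
The log2 dKO over WT ratio of each of the 58 shared regions by scaled fold enrichment against that by scaled pileup, with the solid line of equality and lines at −1 and 1. The 5 regions left of the dashed line at −1 all lie above −1 on the vertical axis, and 1 Jag1 region passes 1 on both axes.

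Hes1 had 18 regions, more than 95.96% of the genes with regions. Of the 18, 11 lay at lower and 6 at higher coordinates than the gene and 1 inside it. Of these 14 were shared and 4 dKO-only, with 0 from WT alone (0%, Wilson 95% interval 0 to 17.6). Over all regions 21.2% were WT-only and 14.2% dKO-only, and between genes 22.6% and 18.2%. The 0 did not hold in 2 other settings: with peaks of q 1e-05 or less in both lists Hes1 gained 2 from WT alone beside 4 from dKO alone, and with summits matched within 200 bp it had 4 and 7. The strongest dKO-only region (chr16:30143798-30144160) had a pileup of 49 and lay beside a shared region (chr16:30144869-30145907). That shared region was 77.8 kb from the gene, with 217 in WT and 184 in dKO (0.70, 0.41 to 0.99). Another, 65.5 kb from the gene (chr16:30132945-30134715), had 162 and 164 (0.96, 0.64 to 1.28), the highest ratio short of 2-fold. By fold enrichment both were level, at −0.09 each.

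Close to Hes1 the local background was high. The regions 5.78 and 2.05 kb from the gene, at lower coordinates, had folds of 2.49 and 1.83 in WT at pileups of 142 and 135, over a background of 56.5 and 73.1. On the same side, the region 40.5 kb from the gene (chr16:30024314-30025390) had pileups of 349 and 172 and the region at 17.6 kb (chr16:30047358-30048058) 317 and 169. Their log2 ratios were −0.08 (−0.35 to 0.19) and 0.03 (−0.24 to 0.31).

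The rest of the pathway was read from a list of 52 further genes, of which 48 had regions. Of their 287 regions, 58 were WT-only (20.2%, 15.97 to 25.2), 30 dKO-only (10.5%, 7.42 to 14.5) and 199 shared, where all regions were 21.2% WT-only and 14.2% dKO-only, inside both intervals. Of the 48 genes, 14 had more WT-only regions (29.2%), 5 more dKO-only ones (10.4%) and 29 equal numbers, against 34.3% and 16.5% of all genes with regions. Ctbp2, a corepressor gene, had 10 shared regions, 9 from WT alone and 0 from dKO alone. Crebbp, a histone acetyltransferase gene, had 3 and 0. A difference of 2 regions towards WT was shared by Dlk1, Hes6, Rbpjl, Ctbp1, Aph1b, Numb, Dtx2 and Mib1. Psen2 alone had 2 more dKO-only regions, with 0 WT-only and 2 dKO-only.

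Shared regions of the 52 genes had a median log2 ratio of −0.14, and 22 of 199 were at least 2-fold lower and 8 at least 2-fold higher in dKO (11.1% and 4.02%), against 9.31% and 7.2% of all. By fold enrichment 4 of the 22 and 1 of the 8 passed 2-fold. Of the 22, 5 belonged to Neurl1b, which encodes a ubiquitin ligase of the Neuralized family, known in flies and mice for the uptake of Notch ligands. This gene was singled out after its values were seen. By pileup all 8 of its shared regions were lower in dKO, from −0.72 to −2.40. The lowest ratio (chr17:26410411-26411673) came from a pileup of 284 in WT and 28 in dKO, and the next (chr17:26420674-26421860) from 310 and 34. By fold enrichment these were −0.80 and −0.47, and 2 of the 8, at 0.38 and 0.82, were on the other side of 0. The Notch coactivator genes Maml2 and Maml3 had 41 and 44 regions, with single-genotype regions in equal number, 6 and 6 at Maml2 and 4 and 4 at Maml3.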

How the data were processed

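Peaks of ATAC-seq libraries from 4 mice were deposited as 1 table per genotype, listed in the labels for both of its mice. The submitters' processing notes name mm10, GRCm38, Bowtie2 2.2.9, Picard and MACS2, with no role or order. Pooling of the mice, duplicate removal and any shift of reads for the transposase are not stated in the labels. Per the file headers, the signal is the authors' pileup at a summit, which carries the depth of its list. The deposited fold is a ratio to local background, with 1 added to pileup and background. The headers of the deposited −log10 p and q columns were damaged, and these columns were read by position. Both lists reached down to a −log10 q of 1.30.

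Mitochondrial peaks (5 WT, 3 dKO) were left out. Peaks of both lists that overlapped by 1 bp or more were joined into regions, placed by the summit of the peak with the highest scaled pileup on the nearest protein-coding gene of RefSeq GRCm38.p6, with ties going to the nearer gene end. Pileup and fold together gave each peak's local background. Intervals of ratios are exact binomial 95% intervals of the pileups, and intervals of shares are Wilson 95% intervals. Both cover counting error only, with reads or regions taken as independent. The depth of each mouse is unknown. The text names all 10 genes, per gene the promoter or gene-end region, the strongest single-genotype regions by −log10 q, every shared region past 2-fold, and up to 8 further pathway genes in each direction with a net difference of at least 2 regions (8 genes tied at 2 are all named), of which 1 is not reported here. The 12 alternatives are given in the closing section. Other regions are given as examples, chosen after their values were seen. Members and lists were chosen with earlier results of these data known. The number of WT peaks with an overlapping dKO peak was the same by bedtools 2.31.1. The placing step was checked on a sample of WT peaks against a direct search, and the ratio step was tested on simulated data. Python 3.11.15, pandas 2.3.3 and scipy 1.17.1 were used.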

Additional observations from a re-analysis of the deposited data

How the results depend on the processing

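Merging by 50% of the shorter peak, a q value of 1e-05 or less, pileup over the lowest background, lists of equal length, a WT list scaled to the dKO background, place by midpoint and a gene table without predicted LOC models (added after the data were seen) kept the counts summed over the 10 genes within 1.5 times of their values. Counts of single genes moved more: with a q value of 1e-05 or less Hes1 had 2 WT-only regions in place of 0, Notch2 had 5 in place of 3, and Notch2 and Dll1 had 0 dKO-only regions in place of 1, while Hey1 had 1 region by midpoint and 3 without LOC models in place of 0. Matching summits within 200 bp raised the WT-only count from 22 to 32 and the dKO-only count from 16 to 24, while the shared count fell from 58 to 50. At Notch3 these counts went from 1, 0 and 5 to 3, 2 and 3. In that setting 2 shared regions were at least 2-fold higher in dKO in place of 1, and 4 at least 2-fold lower in place of 5. The Dll1 region from position 15325783, with summits 274 bp apart, was no longer shared there. With nearest genes within 20 kb there were 13 WT-only, 9 dKO-only and 38 shared regions, of which 1 was 2-fold lower and 0 higher, and with all regions within 10 kb of a member 12, 10 and 38, with 1 lower and 0 higher. Both settings take in fewer regions. Scaling by the median of shared regions moved the median log2 ratio to 0.071, outside its 95% order-statistic interval of −0.22 to 0.035, and gave 3 higher regions. By fold enrichment 0 regions were 2-fold lower in place of 5, and the Dll1 region from position 15325783 turned from −1.43 to 0.035. Over all 12 settings, 49 counts and medians stayed near their value and 14 moved. For the single regions past 2-fold, 67 ratios stayed near their value, 2 moved and 1 reversed. The 2 that moved were both at Rbpj by fold enrichment, and the reversed one was the Dll1 region above. Settings without a change of scaling left each ratio as it was wherever the region stayed shared. Most of the 67 were therefore fixed in advance and do not show that the ratios are stable. No paired analysis was possible because the mice share no replicate numbers and each genotype has 1 list, which also allowed no replicate to be left out. With the WT list scaled to the dKO background, the 22 WT-only and 16 dKO-only counts were as before. The depth of each mouse is unknown, which limits what weak peaks can show.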
